A study of Mus musculus with 11 samples.

Results

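On mouse chromosome 1, a run of non-coding features stretched across nearly all of Vwc2l, on the strand opposite to that gene, and was about 10.5-fold lower in the retinas labelled as Nrl knock-out than in wild-type retinas. Features on that strand covered 47.9% of the span of the run, with gaps between them. The run was defined by position: every feature of the deposited table that overlaps chromosome 1 from 70652000 to 70919000 (mm10), on either strand, which gave 56 of the 36097 features in the table. The stretch was picked because its features were lower in the knockout, so the difference between the genotypes is given below as a description, with no test. The 300 kb on each side were set aside for comparison, and the table used here lists 0 features in either of them. RNA depleted of polyadenylated transcripts had been sequenced from whole retina at postnatal day 21, in 5 wild-type libraries and 6 knockout libraries. Below, ± is the SD over the 5 wild-type or the 6 knockout libraries. The labels name neither the strain nor the altered part of Nrl, and they number the replicates without saying that each is a separate animal.

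Nrl is the transcription factor that turns photoreceptor precursors into rods, and without it the photoreceptors take on features of cones. It binds DNA as a basic leucine zipper protein of the Maf family, often beside the photoreceptor factor Crx. Vwc2l encodes a secreted protein with von Willebrand factor C domains, related to Vwc2, a modulator of bone morphogenetic protein signalling. Spag16 encodes a protein of the central apparatus of motile cilia. Gm29906 is a predicted long non-coding RNA gene of RefSeq with no role known here.

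The run lay against the direction of both protein-coding genes. Of its 56 features, 53 were on the minus strand and 3 on the plus strand, while Spag16 (69826970 to 70725132) and Vwc2l (70725715 to 70885397) are both transcribed from the plus strand (GENCODE M21, same build). Within the run 42 features lay opposite to Vwc2l, 1 lay opposite to Spag16, and 13 overlapped no GENCODE gene, 10 of them on the minus strand. Exons of Vwc2l were touched by 4 features, by 39 to 761 bp, and the other 39 features at the 2 genes lay over introns alone.

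RefSeq places Gm29906 on the minus strand from 70851015 to 70918509 (GRCm38.p6, the build also called mm10), and the upper edge of the run fell at its start. The outermost minus-strand feature, MSTRG.2516, ended at 70918375, 134 bp inside the annotated start of Gm29906. Only 17 of the 53 minus-strand features overlapped the span of Gm29906. The other 36 lay past its annotated end, and the farthest reached 198 kb past it. Whether the features are pieces of 1 long RNA or separate RNAs was not tested.

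Because the run begins at this start, the 300 bases around it are shown, from 250 bases before the start to its 50th transcribed base, read 5′ to 3′ on the minus strand (RefSeq, GRCm38.p6, chr1:70918460-70918759). The window around the start of Vwc2l, inside the run and on the plus strand (chr1:70725465-70725764), is shown to compare. Capitals mark 2 motifs searched on both strands: TGCTGA (reverse TCAGCA), the part of a Maf site that 1 partner of the dimer reads, and TGACTCA (reverse TGAGTCA), the core shared by AP-1 and Maf-type sites.
Gm29906 start: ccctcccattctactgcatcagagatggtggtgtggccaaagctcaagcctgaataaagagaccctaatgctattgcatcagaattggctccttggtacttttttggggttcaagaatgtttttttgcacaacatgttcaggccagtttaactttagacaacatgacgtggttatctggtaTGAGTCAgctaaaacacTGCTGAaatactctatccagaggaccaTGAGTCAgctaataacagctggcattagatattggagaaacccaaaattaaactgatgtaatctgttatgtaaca
Vwc2l start: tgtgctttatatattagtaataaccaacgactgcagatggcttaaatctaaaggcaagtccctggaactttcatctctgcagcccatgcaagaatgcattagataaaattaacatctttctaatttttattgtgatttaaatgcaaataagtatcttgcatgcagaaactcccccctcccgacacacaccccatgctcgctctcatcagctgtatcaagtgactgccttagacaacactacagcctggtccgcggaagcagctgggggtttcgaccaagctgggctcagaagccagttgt
The Gm29906 window held TGCTGA once, 52 bases before the start, and TGAGTCA 2 times, 69 and 25 bases before it, with no overlap among the 3 matches. TGCTGA or its reverse occurs in 19.5% of the 32851 RefSeq promoter windows of this length. TGACTCA was added after this window had been read, and the cut of 2 matches follows the count seen in it. In all promoter windows TGACTCA occurs in 5.20%, and at least 2 times in 0.222%, shares that test nothing here. The Crx-type letters TAATCC (reverse GGATTA), present in 7.06% of windows, were absent from the windows of Gm29906, Vwc2l and Spag16. The Vwc2l window and the windows of 2 further annotated starts of Gm29906 (at 70909556 and 70894461) held none of the 3 motifs. Such matches are letters only and show no binding.

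**Figure D1:**
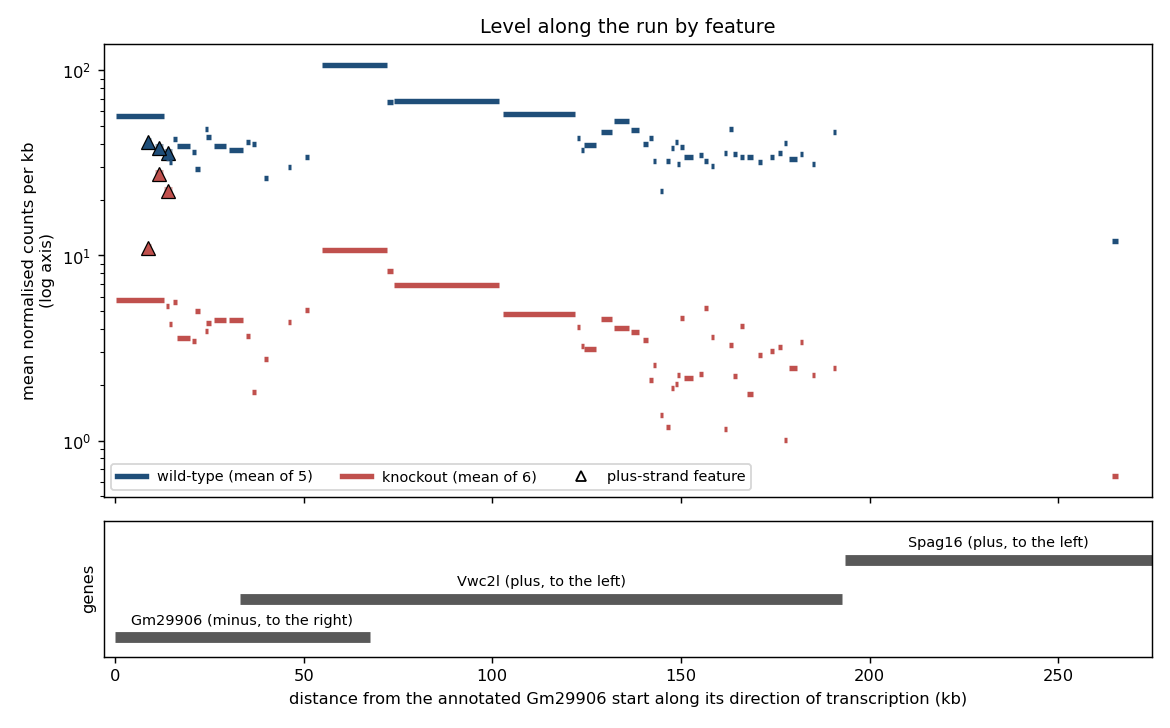
Mean level of each feature per kb of its span (log axis), in wild-type (blue, mean of 5 libraries) and Nrl knockout (red, mean of 6), against its distance in kb from the annotated start of Gm29906. Triangles are the 3 plus-strand features and the grey bars are genes. On the minus strand the knockout level lies below the wild-type level at every feature, from the Gm29906 start to MSTRG.2451 inside Spag16.

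Reads in the listed features numbered 3238184 to 4150460 in the wild-type libraries and 3374221 to 4876429 in the knockout libraries. The run took 0.129% to 0.242% of them in wild-type and 0.0115% to 0.0296% in knockout. Library pairs of the same genotype had correlations of log2 values from 0.880 to 0.941, and mixed pairs from 0.672 to 0.745, so that no library stood with the other genotype. A feature opposite to Nrl itself, MSTRG.28375, held 33.3 to 55.5 normalised counts in the wild-type libraries, 0.758 in knockout 5 and 0 in the other 5 knockout libraries, which fits the labels. Knockout 2 had the most reads, and its 10 most abundant features took 53.5% of them, the highest share of the 11 libraries.

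Summed over the 53 minus-strand features, the 5 wild-type libraries held 5556, 6445, 8144, 8881 and 8862 normalised counts, the authors' read counts divided by a size factor for each library. The 6 knockout libraries held between 474 and 834, with a median of 760. The groups did not overlap, and the lowest wild-type library was several times above the highest knockout library. The wild-type mean was 7577 ± 1503 and the knockout mean 723 ± 130, so that 9.55% ± 1.71 of the wild-type level remained. The lowest value, 474, was that of knockout 2. These sums come from whole retina, in which fewer cells that make the RNA and less of it per cell cannot be told apart.

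The 3 plus-strand features behaved differently in size. Their sums were 156, 165, 198, 146 and 149 normalised counts in the wild-type libraries, and lay between 92.9 and 111 in the knockout libraries, with a median of 106. The groups did not overlap here either, but 64.2% ± 4.00 of the wild-type level remained. The ratio of minus-strand to plus-strand counts was 35.5 to 60.8 in wild-type and 5.10 to 7.80 in knockout.

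**Figure D2:**
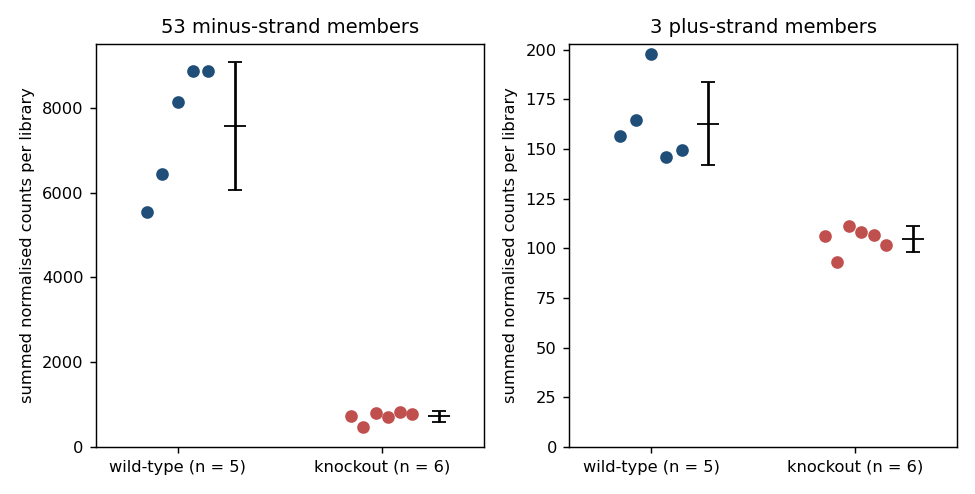
Summed normalised counts of the run in each library, for the 53 minus-strand features (left) and the 3 plus-strand features (right), on linear axes that start at 0. Points are libraries and bars are means with SD (5 wild-type, 6 knockout). On the minus strand the knockout libraries sit between 474 and 834 and the wild-type libraries between 5556 and 8881, while on the plus strand the lowest wild-type library, at 146, is near the highest knockout library, at 111.

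Most of the RNA of the run was in 4 long features. MSTRG.2496, MSTRG.2498, MSTRG.2494 and MSTRG.2516, each over 10 kb, held 73.3% to 75.1% of the minus-strand counts in the wild-type libraries and 72.4% to 77.1% in the knockout libraries. Their part of the run was thus about the same in both genotypes. Over all 53 minus-strand features the wild-type mean ran from 3.76 to 1913 normalised counts, with a median of 21.7, and 16 features were below 10.

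MSTRG.2498 (70846463 to 70863706, 17244 bp) is the densest feature of the run and lies opposite to Vwc2l, across the annotated end of Gm29906. It held 1456, 1541, 1925, 2173 and 2179 normalised counts in the wild-type libraries and 119 to 221 in the knockout libraries, with a median of 193. All 6 knockout libraries were far below all 5 wild-type libraries. The means were 1855 ± 342 and 184 ± 36.2, a log2 difference of -3.33 on the log2(value + 1) scale. Per kb of span this is 108 ± 19.8 normalised counts in wild-type, against a median of 21.1 over the 810 features of the table longer than 10 kb.

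MSTRG.2496 (70816707 to 70844571), 27865 bp long, is the longest feature of the run and lies wholly past the annotated end of Gm29906. Its wild-type libraries held 1307, 1705, 2046, 2245 and 2264 normalised counts, and its knockout libraries 124 to 242, with a median of 201. Again the groups were far apart, with means of 1913 ± 407 and 194 ± 41.0 and a log2 difference of -3.30.

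MSTRG.2494 (70796580 to 70815790), the next feature downstream on the minus strand, held 728, 965, 1160, 1301 and 1418 normalised counts in wild-type and 48.5 to 125 in knockout, with a median of 89.8. The log2 difference was -3.60, and 8.30% of the wild-type mean remained. MSTRG.2516 (70905656 to 70918375), the feature at the Gm29906 start, held 583, 629, 856, 837 and 695 normalised counts in wild-type and 60.6 to 90.5 in knockout, with a median of 70.7. Its log2 difference was -3.27, and 10.2% remained. Neither feature had overlapping groups.

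The next 8 minus-strand features by wild-type level, MSTRG.2488, MSTRG.2490, MSTRG.2491, MSTRG.2505, MSTRG.2506, MSTRG.2511, MSTRG.2497 and MSTRG.2487, averaged 101 to 222 normalised counts in wild-type and 8.16 to 17.1 in knockout. Between 7.68% and 12.2% of the wild-type mean remained in them. Of these, MSTRG.2505 reaches 761 bp into the last GENCODE exon of Vwc2l, on the other strand. RefSeq draws Vwc2l to 70888938, past the end of MSTRG.2505 at 70888195. The 4 features that touch Vwc2l exons together kept 9.60% ± 3.25 of the wild-type level, close to the 9.55% of the whole minus strand.

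Over all 53 minus-strand features, the remaining level ranged from 2.48% to 17.0%, with a median of 8.89%. In 46 of the 53 every knockout library was below every wild-type library, as in 6.32% of all listed features. The other 7 were short and low features with wild-type means under 10. Read counts limit the low end: 30 of the 53 had at least 1 knockout library at 0, which by itself allows up to 3 reads, or 2.28 to 3.12 normalised counts depending on the knockout library. None had all 6 knockout libraries at 0, so a fold could be formed for each.

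The far edge of the run is a single feature inside Spag16. MSTRG.2451 (70652633 to 70654187) lies in an intron of Spag16, 73.8 kb from the next feature, MSTRG.2458, and no other listed feature lies opposite to Spag16. It held 27.4, 25.4, 11.1, 14.5 and 15.1 normalised counts in wild-type and between 0 and 2.88 in knockout, where 3 libraries were at 0. The groups did not overlap, but the knockout libraries together had 6 reads against 89 in wild-type. Its level per kb in wild-type, 12 ± 4.64, was the lowest of the 53 minus-strand features. The Spag16 part of the run thus rests on 1 thin feature.

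MSTRG.2458 (70728020 to 70728219), the first feature past this gap, lies 2305 bp inside Vwc2l from its start. The start of Vwc2l itself, 193 kb from that of Gm29906, was not covered by a listed feature.

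In the fit across all features (limma, features with a mean of at least 5, Benjamini-Hochberg adjusted p below 0.05), 28.1% of 21395 tested features were called, 12.6% lower in knockout and 15.6% higher. Of the 56 features of the run 40 passed the limit on the mean, 39 of these were called lower and 0 higher. The 16 that did not pass averaged 3.76 to 9.32 normalised counts in wild-type and 0.138 to 1.18 in knockout. A low feature could pass only through its wild-type libraries, and the run was chosen with this comparison in view, so nothing is read from these counts. The median log2 difference was -3.21 over the 40 and -0.02 over all tested features. Every knockout library was below every wild-type library in 48 of the 56 (6.32% of all listed features) and in 39 of the 40 (9.13% of all tested features). According to the authors' deposited table, 55 of the 56 have an adjusted p below 0.05 with a negative log2 fold change. The exception there, MSTRG.2517, was also the 1 tested feature not called here. The share of all features that the authors' test calls lower was not worked out, so nothing is read from that count either.

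The plus-strand features lie near the Gm29906 start, where they overlap minus-strand features. MSTRG.2517 (70905925 to 70907860) lies with 100% of its length inside the span of MSTRG.2516. It held 72.7, 84.7, 98.4, 60.9 and 52.5 normalised counts in wild-type and 43.2 to 59.3 in knockout, with a median of 54.0. Its groups overlapped, with means of 73.8 ± 18.3 and 53.2 ± 6.01 and a log2 difference of -0.44. Per kb it went from 38.1 ± 9.47 to 27.5 ± 3.10, while MSTRG.2516 around it went from 56.6 ± 9.61 to 5.76 ± 0.867. In knockout the plus-strand feature was therefore denser than the minus-strand feature that encloses it, and in wild-type it was thinner. RefSeq places a pseudogene, Gm8859 (70906748 to 70908067), over 1113 bp of MSTRG.2517, and over 1320 bp of MSTRG.2516. Whether reads there are shared with a similar sequence elsewhere was not tested, so the levels of those parts are uncertain.

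MSTRG.2513 (70903490 to 70905657), next to it on the plus strand, held 67.2, 73.4, 84.5, 77.4 and 84.7 normalised counts in wild-type and 39.4 to 64.7 in knockout, with a median of 46.0. The groups were close but did not overlap, and 62.2% of the wild-type mean remained. MSTRG.2518 (70909702 to 70909983) was the lowest of the 3, with 16.5, 6.59, 14.8, 7.74 and 12.1 in wild-type and 0.960 to 5.20 in knockout. There 26.7% remained, nearest of the 3 to the minus-strand features. It lies, like MSTRG.2517, wholly inside MSTRG.2516. The sources used here do not say whether counting used the strand of the reads, so reads of either strand may be counted on the other where the features overlap.

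The level of the minus-strand RNA changed along the run. Features whose middle lies less than 100 kb from the Gm29906 start (19 features, of which 17 overlap the annotated gene) averaged 69.1 normalised counts per kb of span in wild-type. The 34 features farther away averaged 45.8, and MSTRG.2451 at the far edge 12. The peak was not at the start: from 50 to 100 kb the level was 82.9 ± 16.2 per kb, against 46.4 ± 9.26 within the first 50 kb. The stretch from 50 to 100 kb held 4 features, among them the long MSTRG.2496 and MSTRG.2498. Over the 53 features, Spearman's rho of the wild-type level per kb was -0.28 with distance and 0.37 with feature length. Spans were used as lengths, so introns inside a feature would lower the levels per kb.

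The part that remained in knockout was smaller toward the far end. It was 10.2% ± 1.78 within 100 kb and 8.08% ± 1.80 beyond. In 5 stretches of rising distance it was 10.6% ± 1.85, 10.1% ± 1.96, 8.19% ± 2.03, 7.78% ± 1.59 and 5.31% ± 6.63. The last stretch is the single feature in Spag16. There the knockout libraries ran from 0% to 15.4%, so its place in the order is uncertain. Across the 53 features Spearman's rho between distance and the log2 ratio of the group means was -0.53, and across the 18 with a mean of at least 20 it was -0.76. These features share libraries and depth and may be parts of 1 RNA, so the coefficients describe the run and carry no p-value.

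**Figure D3:**
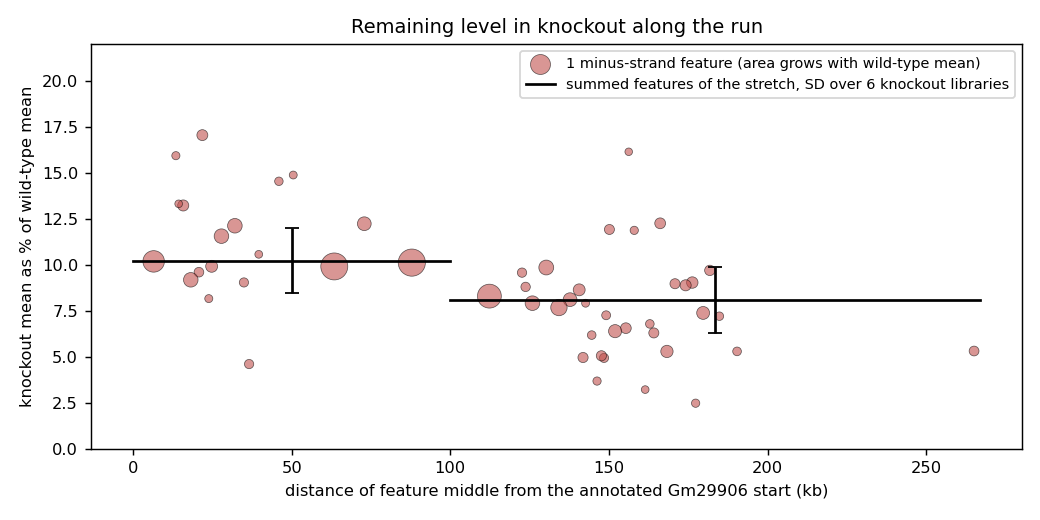
Knockout mean as a percentage of the wild-type mean for each of the 53 minus-strand features, against distance from the annotated Gm29906 start in kb. Point area grows with the wild-type mean. Black lines are the summed features within 100 kb (10.2%) and beyond (8.08%), with SD over the 6 knockout libraries, whose bars overlap.

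The distribution along the run can also be given as a share within each library, which does not depend on its size factor. The features beyond 100 kb held 30.0%, 31.9%, 31.0%, 30.9% and 33.7% of the minus-strand counts of the run in the wild-type libraries. In the knockout libraries they held 23.9% to 29.9%, with a median of 26.5%. The groups did not overlap, but the nearest libraries were equal within counting error: wild-type 1 had 30.0% (95% Wilson interval 28.6% to 31.4%, from 4051 reads) and knockout 5 had 29.9% (27.3% to 32.7%, from 1100 reads). The difference of the means was -4.84 percentage points. With the split at 50 or 150 kb in place of 100 kb it was -2.11 or -1.25, and without the 4 features over 10 kb it was -8.60. The split and these changes were chosen after the values were seen. The intervals cover counting error only and leave out the spread between libraries. PCR copies of 1 molecule count as separate reads, so even the counting error may be understated.

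**Figure D4:**
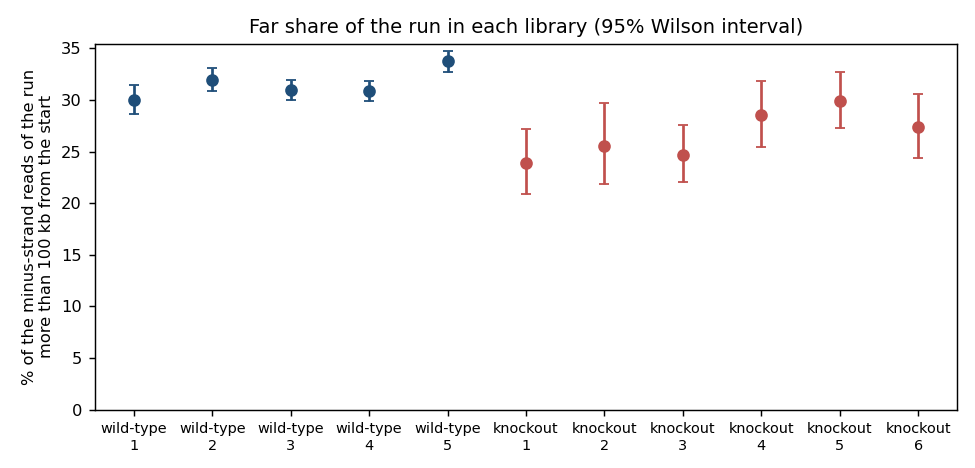
Percentage of the minus-strand reads of the run that fall in features more than 100 kb from the annotated Gm29906 start, in each library, with 95% Wilson intervals for counting error. Wild-type libraries (blue) lie between 30.0% and 33.7% and knockout libraries (red) between 23.9% and 29.9%.

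The run spans 2 of the chromosomal domains given in the authors' deposited table. Domain 65 holds 14 listed features and domain 66 holds 42, and all of them belong to the run. For either domain the authors' deposited table lists 0 mRNAs as up or down. The 14 features of domain 65, all minus-strand and at the far end, kept 7.67% ± 2.03 of the wild-type level, and the 39 minus-strand features of domain 66 kept 9.64% ± 1.75. Lower levels were thus measured on both sides of the domain border: the last listed feature of domain 65 ends at 70757139 and the first of domain 66 starts at 70760413.

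Outside the run the nearest listed feature on each side was over 1 Mb away and low. On the Spag16 side MSTRG.2435 lies 1153 kb off, with wild-type and knockout means of 2.33 ± 1.67 and 5.13 ± 3.22 normalised counts, under the limit for testing. On the other side MSTRG.2538 lies 1237 kb off, with 3.74 ± 2.22 and 7.57 ± 1.35 normalised counts and a log2 difference of 0.98 (limma adjusted p = 0.0612). Neither had a lower mean in knockout. The next feature on that side, MSTRG.2543, 1298 kb off, was more abundant, with 115 ± 26.0 and 118 ± 18.8 normalised counts and a log2 difference of 0.04 (limma adjusted p = 0.908). Of 7 genes around the run (Ikzf2, Spag16, Vwc2l, Bard1, Abca12, Atic and Fn1), Spag16 and Vwc2l alone had listed features, all of them in the run.

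Stretches of lower features elsewhere in the genome give a scale for the run. Joining neighbouring tested features of 1 strand that were called lower and lay within 10 kb gave 395 stretches of at least 2 features. The one with the most features was the part of this run from MSTRG.2460 to MSTRG.2498, with 26 features over 127 kb, which was rank 6 by span. The next was a plus-strand stretch on chromosome 14 at Slc35f4, with 22 features over 80.9 kb, and then one on chromosome 1 at Gm5835, with 15 features over 208 kb. In these the summed knockout level was 29.3% and 38.3% of wild-type, against 9.35% in the stretch of this run. Less remained in 2 others of the 10 stretches with the most features, 3.09% at Gm47160 on chromosome 9 (11 features) and 3.56% at 4930555M17Rik on chromosome 3 (8 features). The run itself was split by this rule: a second piece, from MSTRG.2503 to MSTRG.2516, had 10 features over 36.6 kb and 10.6% remaining, and MSTRG.2451 joined neither. Between the pieces lay MSTRG.2499, MSTRG.2501 and MSTRG.2502, which were too low to be tested and also had lower means in knockout. Over all features called lower the median remaining level was 31.2%. The stretches were formed from the calls themselves, so their order is a description.

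Many features at rod and cone genes also differed between the genotypes. Every tested feature of the cell type lists lay on the strand opposite to its gene. The sums below are therefore of opposite-strand features and not of the genes' own transcripts. For each list the share to read beside its count is that of all tested features, 12.6% lower and 15.6% higher. Of 26 tested features at 8 of 9 listed rod genes, among them Gnat1, Cnga1 and Nrl, 17 were lower, 4 higher and 5 not called. The 4 higher features lay at Sag and Pde6b. The summed level of the 26 was 2214 to 3762 normalised counts in wild-type and 287 to 494 in knockout. Of 18 tested features at 5 of 7 listed cone genes, among them Opn1sw and Arr3, 10 were higher, 2 lower and 6 not called. The 2 lower features lay at Pde6c. The summed level of the 18 was 291 to 327 in wild-type and 1025 to 1563 in knockout. Of 12 tested features at bipolar genes 1 was higher and 1 lower. Smaller lists had 1 lower call among 2 tested features for Müller glia, 1 of 3 for amacrine cells, 0 of 1 for ganglion cells, 1 of 10 for pigment epithelium and 1 of 4 for multiciliated cells, and 0 higher calls, numbers too small to set against those shares. For horizontal, microglial and vascular genes 0 features were tested. The part of these shifts in the loss of the run was not tested.

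The listed features at other genes of the 2 pathways were few. Only 4 of 33 genes of bone morphogenetic protein signalling had tested features, 7 in all, of which 1 was lower and 0 higher, against 12.6% and 15.6% of all tested features (median log2 difference 0.29). At Vwc2, the closest relative of Vwc2l on the list, MSTRG.12302 (chromosome 11, 11256227 to 11270867, opposite strand) went from 446 ± 57.4 normalised counts to 562 ± 82.2 in knockout. The groups overlapped, with a log2 difference of 0.33 and an adjusted p of 0.125 in limma (SE 0.16). The threshold was passed in DESeq2, with an adjusted p of 0.0471, and in limma with the replicate number as a block, with 0.0332. Of the 19 altered settings, the other 17, edgeR among them, left the result the same. At Bmpr1a, which encodes a type I receptor of the pathway, MSTRG.27638 was lower, with 15.2 ± 7.72 against 4.56 ± 2.28 and a log2 difference of -1.50 (SE 0.38, limma adjusted p = 0.00269). Its groups overlapped, and MSTRG.27640 at the same gene differed little, with 122 ± 16.7 against 109 ± 17.9 (adjusted p = 0.561 in limma). Of 17 genes of the ciliary central apparatus, Cfap70 alone had tested features, 2 in number, and limma called 0 of them (0 at an unadjusted p under 0.05, 0 in edgeR and 0 in DESeq2). MSTRG.27003 there held 47.9 ± 16.7 in wild-type and 44.4 ± 13.1 in knockout, and MSTRG.27007 held 13.5 ± 4.24 and 19.8 ± 6.78, which limma called with the replicate block (adjusted p = 0.0461).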

How the data were processed

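The labels' protocols give 50 bp stranded single-end reads of polyadenylate-depleted RNA from mouse retina at postnatal day 21 (5 wild-type and 6 Nrl knockout libraries). The values used are signal, read counts that the authors divided by DESeq2 size factors, per the file headers. Per the file headers, the table also carries the authors' test: a log2 fold change and SE, a test score, a raw p-value and an adjusted one. Builds mm9 and mm10 and the tools TopHat2 2.0.10, Cufflinks 2.2.1 and Cuffdiff appear in the submitters' processing notes, with no role or order. The name of the table gives mm10. Neither the counting tool nor its strand setting is known from these sources.

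The 36180 lines of the table hold 36097 features, each used once. Starts count from 0, as 147 of 155 Ensembl-named features show against exon starts, and are printed counting from 1. Within a tolerance of 0.001, 100% of values were whole multiples of the value of 1 read. The listed features held 3238184 to 4876429 reads per library, and the full depth of the libraries is not known from these sources.

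The test was limma 3.58.1 in R 4.3.3 (trend and robust, two-sided) on log2(value + 1), with group as the only term, for features with a mean of at least 5. Changes of low features are understated on this scale. The procedure was tested on simulated counts. As alternatives, edgeR 4.0.16 (quasi-likelihood test) called 2524 features lower and 3199 higher, and DESeq2 1.42.0 called 2508 and 2960. Both used recovered reads of 9 libraries, without knockout 2 and wild-type 5, in which 1 read is worth close to 1 normalised count. Other alternatives were pseudocounts of 0.5 and 5, no filter or a mean of at least 20, TMM scaling, a replicate block and leaving out each library. If the replicates are technical, p-values measure only the spread between libraries. The features of the run and the gene lists were chosen with earlier results of these data known. Features were named by rule: the 12 of highest wild-type mean, the 3 longest, the edges, those not lower, and for each pathway list the 2 largest calls and the 2 most abundant of the rest. MSTRG.2513, MSTRG.2518, MSTRG.2458, MSTRG.28375 and the nearest features outside the run were added after their values were seen. 1 gene of the rod list is not reported here and was left out of its counts.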

Additional observations from a re-analysis of the deposited data

Results flagged for a closer look

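Among the 6 knockout libraries, knockout 2 stood apart at the low end, with 566 normalised counts summed over the run (the other 5 held 822 to 941) and 474 over its minus-strand features (the other 5 held 713 to 834). It was also the library with the most reads, 53.5% of them in its 10 most abundant features. Without it, the knockout level of the run was 11.4% of wild-type in place of 10.7%.

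In 3 low features the flag was a single knockout library above 0 while the other 5 were at 0: knockout 1 with 1.04 normalised counts in MSTRG.2463, knockout 3 with 0.830 in MSTRG.2471 and knockout 5 with 1.52 in MSTRG.2482. These values are 1 or 2 reads. In all 78 groups of libraries were examined, and chance alone flags about 1 in 20.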

How the results depend on the processing

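With a mean of at least 20 in place of 5, 8266 features were tested and fewer were called, 1628 lower and 1722 higher in all and 19 of 20 in the run, because fewer features were tested. The summed knockout level of the run stayed between 10.04% and 11.4% of wild-type when each library was left out in turn, and was 10.6% under TMM scaling, which moved the median log2 difference of all features by -0.02. Pseudocounts, no filter, TMM scaling, edgeR and DESeq2 kept the counts of calls within 1.5 times. Leaving out single libraries gave 37 to 39 lower calls in the run, 2325 to 2732 lower and 3084 to 3537 higher calls in all. For MSTRG.27003 at Cfap70, which was not called, the log2 difference ran from -0.24 to 0.068 with single libraries left out and changed sign without wild-type 1 (0.068) or knockout 3 (0.0046). The cause was not tested. MSTRG.12302 at Vwc2 passed the threshold in DESeq2 (adjusted p = 0.0471). To look for pairs, each feature's group mean was subtracted from its log2 values. A wild-type and a knockout library of the same number then correlated at 0.0013 to 0.294, so the numbers were not taken as pairs. With the replicate number as a block, which drops knockout 6, limma called 3260 features lower and 3667 higher, 39 in the run, and MSTRG.12302 (adjusted p = 0.0332) and MSTRG.27007 (adjusted p = 0.0461) passed the threshold. The flanks held no features, so tests in them could not be run. At this depth features of a few reads in knockout set only a coarse level.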
